A study of Mus musculus with 2 samples.

Results

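The *Ms4a1*-expressing B cells of mouse bone marrow were followed in single-cell RNA-Seq data, 43 cells of the 6271 kept in the WT library and 66 of the 3662 kept in the Cko library, or 109 of 9933 in all. A cell was counted among them when it held at least 200 genes, at least 1 unique molecular identifier (UMI, 1 counted RNA molecule) of *Ms4a1* and at least 1 of *Cd79a*, fewer than 5 UMIs of *Igll1* and *Vpreb1* together, less than 1% of its UMIs in hemoglobin genes and less than 5% in the neutrophil granule genes *Camp*, *Ngp*, *Ltf*, *Lcn2*, *S100a8* and *S100a9*. The cells were thus selected on measured values, and the levels of those genes are given as a description.

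The study asked how loss of site-1 protease (S1P, the enzyme encoded by *Mbtps1*) in the bone-forming lineage altered the marrow. Bone marrow cells came from the crushed, collagenase-treated hindlimbs and forelimbs of C57BL6/J mice at postnatal day 21, after lysis of red blood cells, and were profiled without sorting on the 10x Chromium 3′ platform. The WT mouse carried the S1P f/f alleles alone, and the Cko mouse was S1P f/f;Osx-Cre, so that Cre made under the Osterix promoter as an Osx1-GFP::Cre transgene removes exon 2 of *Mbtps1* in Osterix-lineage cells. Mice with Osx-Cre alone were not part of the comparison, so the transgene and the deletion cannot be told apart. There was 1 library from 1 mouse per genotype, so no difference has a replicate check. No p-value is given, the 95% intervals cover counting error only, and cells of 1 mouse are not replicates.

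B cells are made in the marrow in steps. Pro-B and large pre-B cells carry a heavy chain with a surrogate light chain made by *Igll1* and *Vpreb1*, small pre-B cells stop dividing and rearrange the kappa and then the lambda light chain genes, and an immature B cell places IgM on its surface and begins to make CD20, the *Ms4a1* product. Cells that go on maturing raise MHC class II, the molecules that present peptide to helper T cells, and gain the receptors that guide them through blood and lymphoid organs. Mature B cells that return to the marrow and plasma cells, which secrete antibody, share the same space.

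The cells made up 0.686% of kept WT cells (exact binomial 95% interval 0.497 to 0.923) and 1.80% of kept Cko cells (1.40 to 2.29), a Cko over WT ratio of 2.63 (exact conditional 95% interval 1.76 to 3.95). Over cells with under 1% hemoglobin the shares were 1.38% and 2.08%, and the ratio was 1.51 (1.01 to 2.27). Over cells with a *Cd79a* UMI they were 3.26% and 8.24%, and the ratio was 2.53 (1.70 to 3.81). *Ms4a1* was found in the same number of cells, 144, in each library, and the hemoglobin limit alone then removed 33 WT cells against 4 Cko cells. Without that limit there were 76 cells in WT and 70 in Cko. The size of the difference in share therefore moved with the hemoglobin limit and with the denominator, and the part of red cell RNA in it was not tested.

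The highest hemoglobin share inside was 0.780% in WT and 0.422% in Cko, and the lowest among cells lost to that limit was 1.27% and 13.1%. For the granule genes the highest share inside was 0.902% in WT and 4.92% in Cko, and the lowest outside was 20.7% and 5.59%. The highest *Igll1* plus *Vpreb1* count inside was 2 UMIs in WT and 4 in Cko, against a lowest of 7 and 15 outside.

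Depth was alike in both libraries. The cells held 3058 to 33053 UMIs in WT (median 4607, total 325029) and 3189 to 25405 in Cko (median 4982, total 500759). The median mitochondrial share was 3.78% in WT and 3.49% in Cko, and the median ribosomal protein share was 31.2% and 38.4%. Scrublet called 2 of the WT cells and 0 of the Cko cells doublets, and all were kept. The libraries shared 28 barcodes, of which 1 belonged to these cells. *Mbtps1* gave 15 UMIs in 11 WT cells and 30 UMIs in 21 Cko cells, but 3′ tags do not read the deleted exon and check nothing here. *Sp7*, which encodes Osterix, was at 0 in the WT cells and was not listed in the Cko table.

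The given markers of the cells were present. *Ms4a1* (chr19:11249675-11266241, minus strand) had a lowest, median and highest count of 1, 4 and 15 UMIs per cell in WT and 1, 4 and 21 in Cko. *Cd79a*, which encodes the signalling chain Ig-alpha of the B cell receptor, had 1, 7 and 20 in WT and 1, 9 and 37 in Cko. Both were required by the selection. *Igkc*, the kappa constant region (chr6:70726435-70726966), was not required and was found in all 43 WT cells and in 59 of the 66 Cko cells, with median 11 UMIs in each library. In erythroid cells, taken as cells with at least 50% hemoglobin, an *Igkc* UMI was found in 4.24% of WT and 2.63% of Cko cells at median depths of 5579.5 and 7470.5 UMIs, so the share in the B cells lay far above the level given by free RNA. *Ighm*, the IgM heavy chain constant region (chr12:113418558-113422730, minus strand), was found in 37 and 63 cells, *Cd74* in 41 and 62, and *Iglc2*, a lambda constant region (chr16:19198396-19200351, minus strand), in 26 and 50. A B cell label was met by these markers in most cells, with the exceptions given next. The markers do not separate immature from mature cells.

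**Figure D1:**
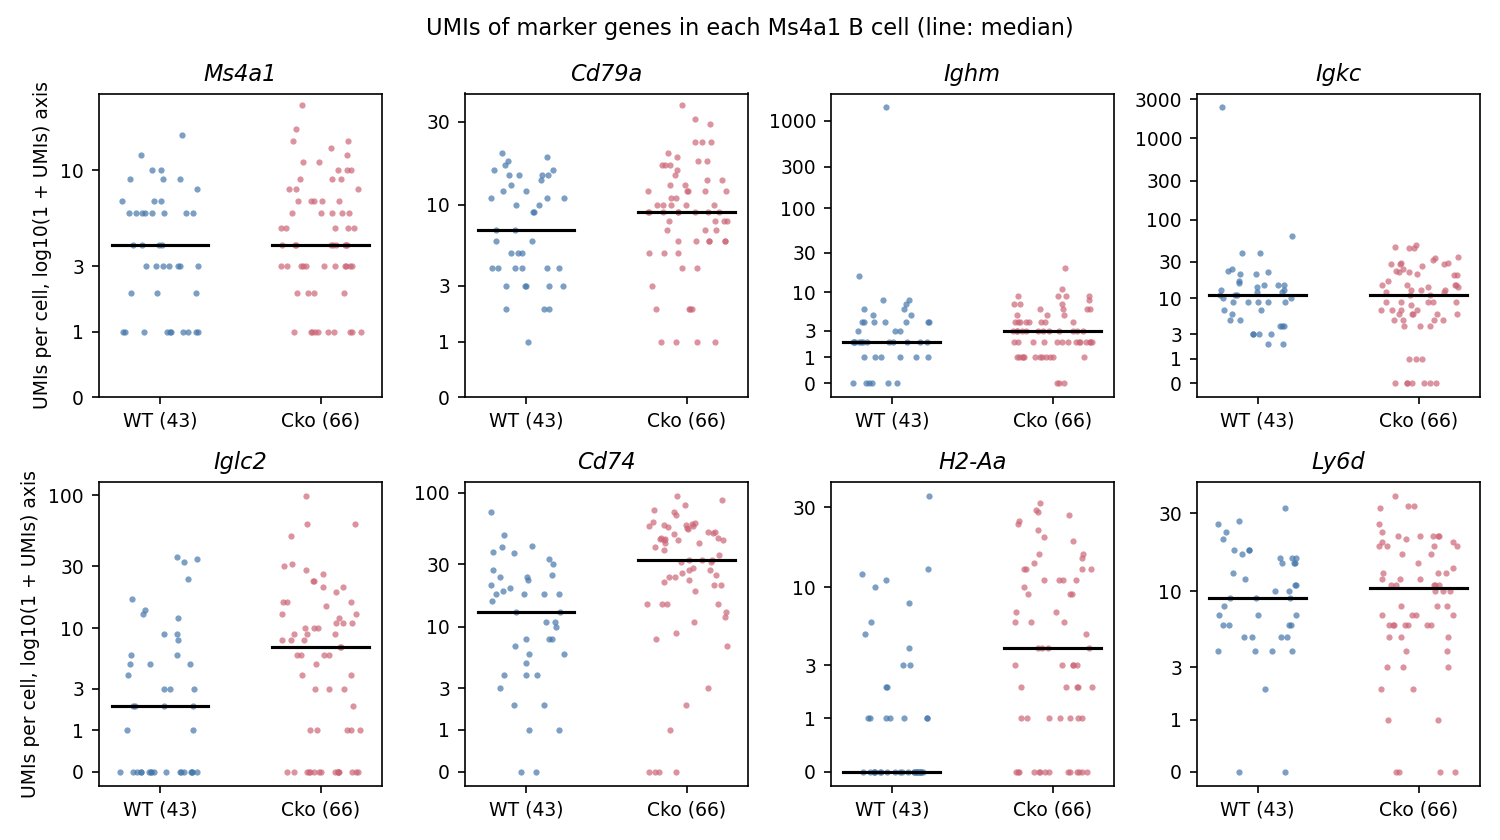
UMIs per cell (log scale) for the marker genes in the WT and Cko *Ms4a1* B cells, each point 1 cell and each bar a median. *Ms4a1* medians were 4 and 4, *Cd74* medians 13 and 32, and 1 WT cell stands apart at 2403 *Igkc* UMIs.

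The 2 required genes were also found together in cells of other kinds. A *Ms4a1* UMI and a *Cd79a* UMI occurred together in 0.895% of WT and 0.987% of Cko erythroid cells, and in 1.88% and 1.28% of neutrophils, taken as cells with at least 20% granule gene UMIs. Among the selected cells, 10 in each library rested on a single *Ms4a1* UMI, and 19 in WT and 32 in Cko held at least 5.

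A few cells set many of the summed values. A single WT cell of 9100 UMIs carried 2403 *Igkc* UMIs, 1432 *Ighm* UMIs and 1091 UMIs of *Igj*, the joining chain of secreted antibody. It also held 77 UMIs of *Mzb1* and 17 of *Xbp1*, an antibody-folding cofactor and a regulator of secretion, and 0 of *Ebf1*, *Vpreb3* and *Cd37*. No other selected WT cell held an *Igj* UMI, the next highest WT counts being 62 for *Igkc* and 16 for *Ighm*, and *Igj* was not listed in Cko. That cell alone held 81.4% of the *Igkc* UMIs and 91.8% of the *Ighm* UMIs of the WT cells.

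A second group was deep cells. At 12000 UMIs or more there were 7 WT cells and 12 Cko cells, and they held 45.9% and 45.1% of all UMIs. Both WT cells called doublets were among them. *Elane* (neutrophil elastase of early granulocytes) reached at least 20 UMIs in 3 WT and 8 Cko cells, all of them this deep, and these gave 95.8% and 99.4% of the *Elane* UMIs. Median *Elane* in the deep Cko cells was 189 UMIs, against a median of 0 below that depth, and their median *Cd79a* was 6 against 10. Neutrophil precursor transcripts thus sat beside the B cell transcripts in 3 of 43 WT and 8 of 66 Cko cells, in which the B cell label is not met in full. Other deep cells were also doubtful. Median *Ms4a1* in the deep WT cells was 1 UMI, against 6 below that depth. The WT cell of 33053 UMIs held 1 *Elane* and 185 *S100a8* UMIs. The part of all these cells in each result was not tested. Sums are over all selected cells unless said otherwise, and are given again for the restricted set, the 35 WT and 54 Cko cells under 12000 UMIs without the plasma cell-like cell, where stated. That depth limit was chosen after the data were seen.

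Across the 1082 genes listed in both libraries with at least 100 UMIs in these cells, 50 genes (4.62%) were at least 2-fold higher in Cko and 28 genes (2.59%) at least 2-fold lower, in UMIs summed over the cells of a library and scaled to a total of 1000000 (CPM). The median log2 ratio was -0.10. In the cells under 12000 UMIs, 548 genes reached the minimum, 20 (3.65%) were at least 2-fold higher and 32 (5.84%) at least 2-fold lower, with median log2 ratio -0.11. Of the 50 genes higher in all cells, 13 were also among those 20, which is 26.0% of the first list and 65.0% of the second. Of the 28 lower, 10 were among the 32, or 35.7% and 31.2%.

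The heavy and light chains come first, since they define the receptor. Summed *Igkc* was 9082 CPM in WT and 1875 CPM in Cko, a ratio of 0.21 (0.19 to 0.22), and summed *Ighm* was 4800 and 485 CPM, a ratio of 0.10 (0.09 to 0.12). Both ratios came from the plasma cell-like cell. Under 12000 UMIs without it they were 1.08 (0.97 to 1.21) for *Igkc* and 1.06 (0.83 to 1.36) for *Ighm*, and the per-cell medians of *Ighm* were 2 and 3 UMIs. Kappa and IgM transcripts per cell thus overlapped widely between the libraries.

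The lambda chain differed more. *Iglc2* had a lowest, median and highest of 0, 2 and 35 UMIs in WT and 0, 7 and 99 in Cko, and its summed level was 791 and 1548 CPM, a ratio of 1.96 (1.70 to 2.26). *Iglc2* UMIs were 8.01% of the *Igkc* plus *Iglc2* UMIs in WT and 45.2% in Cko, a ratio of 5.65 (4.97 to 6.42). Without the plasma cell-like cell the WT share was 29.1%. With each cell given the same weight the shares were 21.9% and 37.0%, and under 12000 UMIs without that cell they were 31.5% and 44.5%. The lambda share was higher in Cko each time, by a smaller margin once 1 cell no longer set the WT value.

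Cells were also counted by their leading light chain. *Iglc2* exceeded *Igkc* in 7 of 43 WT cells (16.3%, 6.81 to 30.7) and in 21 of 66 Cko cells (31.8%, 20.9 to 44.4). *Igkc* led in 36 and 42 cells, and in 3 Cko cells the counts were equal. The intervals of these shares overlap. Cells with at least 20 *Iglc2* UMIs and fewer than 5 *Igkc* UMIs numbered 0 in WT and 5 in Cko, and 7 Cko cells but no WT cell had no *Igkc* UMI. Among those 7, the deep cells of 19303 and 25405 UMIs held 127 and 166 *Elane* UMIs. The latter had no *Iglc2* UMI either. At least 5 UMIs of both chains were found in 15 WT cells (34.9%) and 30 Cko cells (45.5%). *Iglc2* is listed without *Iglc1* and *Iglc3*, whose sequences are near copies, so reads of these genes may have been split or dropped in counting and the lambda level is uncertain. An *Iglc2* UMI was found in 1.49% of WT and 3.29% of Cko erythroid cells.

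**Figure D2:**
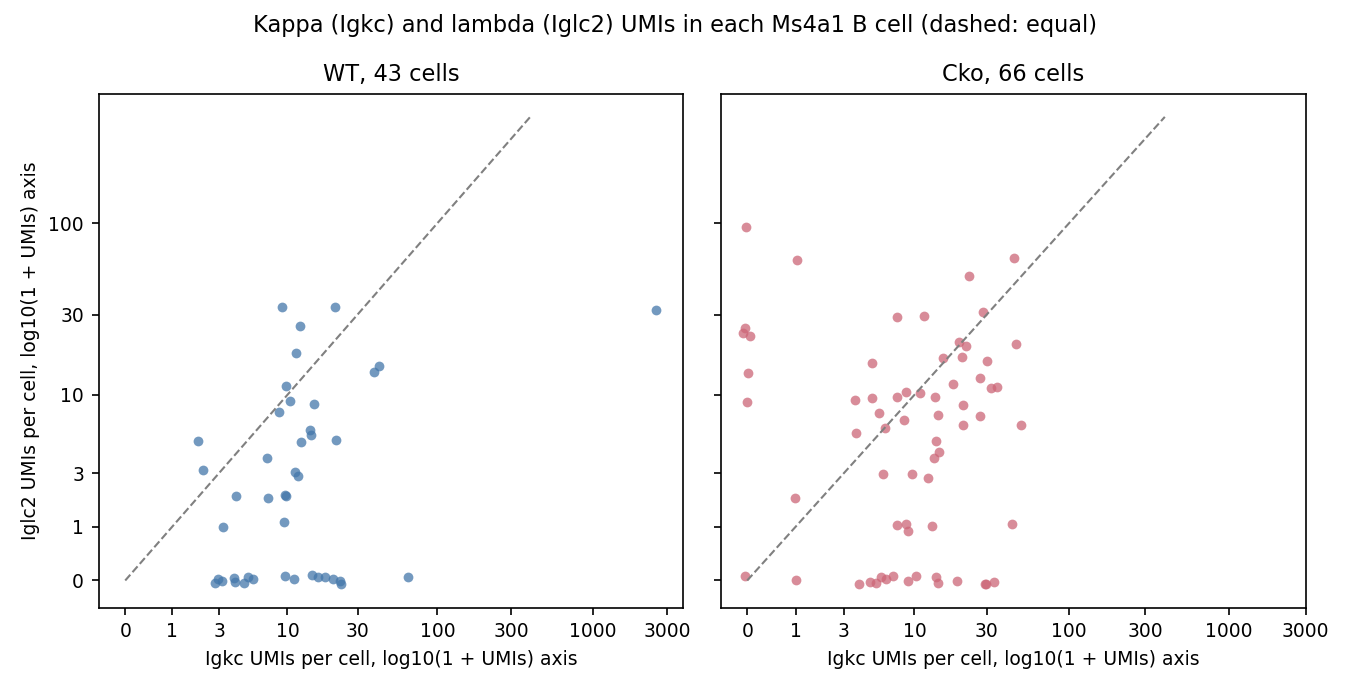
*Igkc* against *Iglc2* UMIs in each *Ms4a1* B cell (log scales), WT and Cko. *Iglc2* exceeded *Igkc* in 7 of 43 WT and 21 of 66 Cko cells, and the WT cell of 2403 *Igkc* UMIs lies apart on the *Igkc* axis.

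MHC class II genes were higher in the Cko cells. Of the 11 genes of the list, 8 were listed in both libraries and 6 reached 100 UMIs. Of those 6, 4 were at least 2-fold higher and 0 lower, against 4.62% and 2.59% of all genes. Their median log2 ratio was 1.14, against -0.10 over all genes. The summed list was 3529 CPM in WT and 7640 CPM in Cko, a ratio of 2.17 (2.03 to 2.31). Under 12000 UMIs without the plasma cell-like cell the ratio was 2.05 (1.91 to 2.19). There 3 of 6 genes were at least 2-fold higher, against 3.65% of all genes. Per cell, the list had a lowest, median and highest of 0, 38.0 and 361 UMIs per 10000 in WT and 1.18, 89.1 and 449 in Cko. At least 50 per 10000 were found in 17 WT cells (39.5%) and 45 Cko cells (68.2%), and the ranges of the libraries overlapped. Deep cells were low in the list in both libraries, with medians of 2.45 and 9.71 per 10000.

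The list's members have distinct tasks. *Cd74*, the invariant chain that escorts new class II molecules, had a lowest, median and highest of 0, 13 and 72 UMIs in WT and 0, 32 and 95 in Cko, and was at 2264 and 4699 CPM, a ratio of 2.08 (1.91 to 2.26), or 1.94 (1.78 to 2.12) in the restricted set. *H2-Aa* (chr17:34282744-34287823, minus strand), the alpha chain of I-A, had 0, 0 and 35 UMIs in WT and 0, 4 and 32 in Cko and was found in 20 of 43 and 52 of 66 cells. Its level was 372 CPM in WT and 1008 in Cko, a ratio of 2.71 (2.22 to 3.33). Its partner *H2-Ab1* was at 335 and 783 CPM (2.33, 1.88 to 2.91), and *H2-Eb1*, the beta chain of I-E, at 215 and 637 CPM (2.96, 2.28 to 3.89). The antigen-presenting chains themselves thus lay between 2.33 and 2.96 in ratio.

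Genes that load peptide onto class II had wider intervals. *H2-DMa*, which helps exchange peptides, was at 163 and 190 CPM, a ratio of 1.16 (0.82 to 1.66), and *H2-DMb2* at 114 and 190 CPM, a ratio of 1.67 (1.13 to 2.51). *H2-DMb1* gave 5 and 18 UMIs, a ratio of 2.34 (0.84 to 8.05). *H2-Ob*, part of the DM inhibitor typical of B cells, was at 49.2 and 97.9 CPM, a ratio of 1.99 (1.11 to 3.74) on few UMIs. *H2-Oa*, its partner, was listed in Cko only, with 42 UMIs in 26 cells. Apart from *H2-DMa*, these intervals overlap those of the presenting chains. *Ciita*, the class II transactivator, was in neither table. *Ifi30*, a thiol reductase of antigen processing, was at a ratio of 0.74, and the class I genes *B2m*, *H2-K1* and *H2-D1* were at 1.27, 1.55 and 1.69. None of the 7 antigen processing genes with enough UMIs passed 2-fold.

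Pre-B-like cells, which had a *Cd79a* UMI and no *Ms4a1* UMI within the same limits, numbered 402 in WT and 254 in Cko. Their summed class II list was 591 CPM in WT and 961 in Cko, but the medians per cell were close, at 294 and 326 CPM. The highest cell was at 33170.5 CPM in WT and 68934 in Cko. The Cko over WT ratio of summed *H2-Aa* was 2.06 in the pre-B-like cells, against 1.05 in erythroid cells and 1.47 in neutrophils. An *H2-Aa* UMI was found in 1.49% of WT and 2.63% of Cko erythroid cells. Of the dendritic cell genes, which can bring class II with them, *Siglech* together with at least 5 *Bst2* UMIs was found in 2 WT and 5 Cko cells. The dendritic cell list summed to 689 CPM in WT and 955 CPM in Cko, a ratio of 1.39 (1.18 to 1.63). In the restricted set its ratio was 1.497 (1.222 to 1.842). The 2 genes of that list with at least 100 UMIs were *Cst3*, at a ratio of 1.14, and *Bst2*, at 1.23. The monocyte and macrophage list, whose cells can also bear class II, summed to 2391 and 3650 CPM, a ratio of 1.53 (1.40 to 1.66) with 0 of 3 genes at 2-fold. In the restricted set the list was at 1523 and 4351 CPM, a ratio of 2.86 (2.49 to 3.29). There 2 of 3 genes were at least 2-fold higher, against 3.65% of all genes, *Lyz2* at 4.22 (3.41 to 5.27) and *Fcer1g* at 2.81. The list's level per restricted cell ranged from 0 to 18495 CPM in WT and from 0 to 37519 in Cko. The macrophage gene *C1qa* was at 0 in both libraries. *Apoe*, also a macrophage gene, was found in 6 of 43 WT cells (highest 3 UMIs) and 19 of 66 Cko cells (highest 14). The part of such cells in the class II levels was not tested.

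The upstream sequence of the class II genes is shown because these genes share a known promoter module, an X box followed by a Y box. GNAAC followed within 15 to 45 bases by GATTGG was searched on the gene's own strand in the 250 bases before each start in the RefSeq promoter table of GRCm38.p6, a pair of motifs chosen with these promoters in view. It was present in 6 of the 9 class II promoters in the table (66.7%) and in 250 of all 32851 promoters (0.761%), or 479 (1.46%) when either strand was allowed. Because of that choice these shares are a description. The 9 promoters belong to 8 genes, and *Cd74* and *H2-Ab1* had no entry. GATTGG alone was in 2540 promoters (7.73%). Both motifs are in capitals in the stretches of *H2-Aa* (chr17:34287859-34287912, minus strand), *H2-Eb1* (chr17:34305768-34305820, plus strand) and *H2-Ob* (chr17:34238810-34238860, plus strand), written 5′ to 3′ on the gene's strand. A match describes these letters and is not a measured binding site.
H2-Aa: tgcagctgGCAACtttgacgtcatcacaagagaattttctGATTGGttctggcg
H2-Eb1: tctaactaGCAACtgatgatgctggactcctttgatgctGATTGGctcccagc
H2-Ob: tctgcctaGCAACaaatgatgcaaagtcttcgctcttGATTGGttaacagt

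In these sequences the pair is separated by 27, 26 and 24 bases. *H2-Aa* and *H2-Eb1* were among the genes at least 2-fold higher in Cko, and *H2-Ob* was at a ratio of 1.99 with too few UMIs to enter that count. *H2-DMa* and *H2-DMb2*, at ratios of 1.16 and 1.67, had no such pair. A link between the pair and the ratios was not tested.

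Cell cycle genes were lower in Cko. The 23 genes of the list summed to 15703 CPM in WT and 10870 CPM in Cko, a ratio of 0.69 (0.67 to 0.72), and 0.48 (0.45 to 0.50) under 12000 UMIs without the plasma cell-like cell. Of 18 genes with at least 100 UMIs, 2 were at least 2-fold lower, against 2.59% of all genes, and 0 higher. Their median log2 ratio was -0.67. In the restricted set 7 of 10 were at least 2-fold lower, against 5.84% of all genes, with median -1.14. *Top2a*, a topoisomerase of dividing cells, was at 600 and 280 CPM, a ratio of 0.47 (0.37 to 0.58), or 0.32 in the restricted set. *Mki67*, the Ki-67 antigen, was at 308 and 144 CPM, also 0.47 (0.34 to 0.64), or 0.38.

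Counted per cell, a *Top2a* or *Mki67* UMI was present in 32 of 43 WT cells (74.4%, 58.8 to 86.5) and 29 of 66 Cko cells (43.9%, 31.7 to 56.7), a ratio of 0.59 (0.43 to 0.82 by the Katz log method). Thinning every cell to 3000 UMIs gave 69.8% and 37.9%. Under 12000 UMIs the counts were 25 of 36 WT cells and 17 of 54 Cko cells. The same share in pre-B-like cells was 94.5% in WT and 85.8% in Cko (89.1% and 79.9% when thinned), and in pro-B and large pre-B-like cells, those with 5 or more *Igll1* and *Vpreb1* UMIs, it was 95.4% and 92.9%. Of these B lineage sets, the *Ms4a1* B cells held the lowest share in both libraries, and the difference between the libraries was widest there. The comparison of these shares was added after the data were seen.

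Cells under 12000 UMIs were then divided by that cycling UMI. In Cko, the median class II level was 55.7 UMIs per 10000 in the 17 cells with a cycling UMI and 153 in the 37 cells without. In WT, the medians were 41.9 in 25 cells and 42.9 in 11 cells. Those 11 cells ranged from 3.03 to 180. The cell at their median of 42.9 was the plasma cell-like cell, which was kept in this division. Its nearest neighbours among them were at 26.0 and 68.8. *Vpreb3*, which escorts early light chains, had a median of 4 UMIs with and 1 without a cycling UMI in Cko, and 7 and 2 in WT. The class II medians of cycling and non-cycling cells were thus apart in Cko. The WT medians were close, but the non-cycling one lay in a wide gap at the plasma cell-like cell. No likeness of the WT groups is therefore read from them. Median *Vpreb3* was lower in the non-cycling cells of both libraries.

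**Figure D3:**
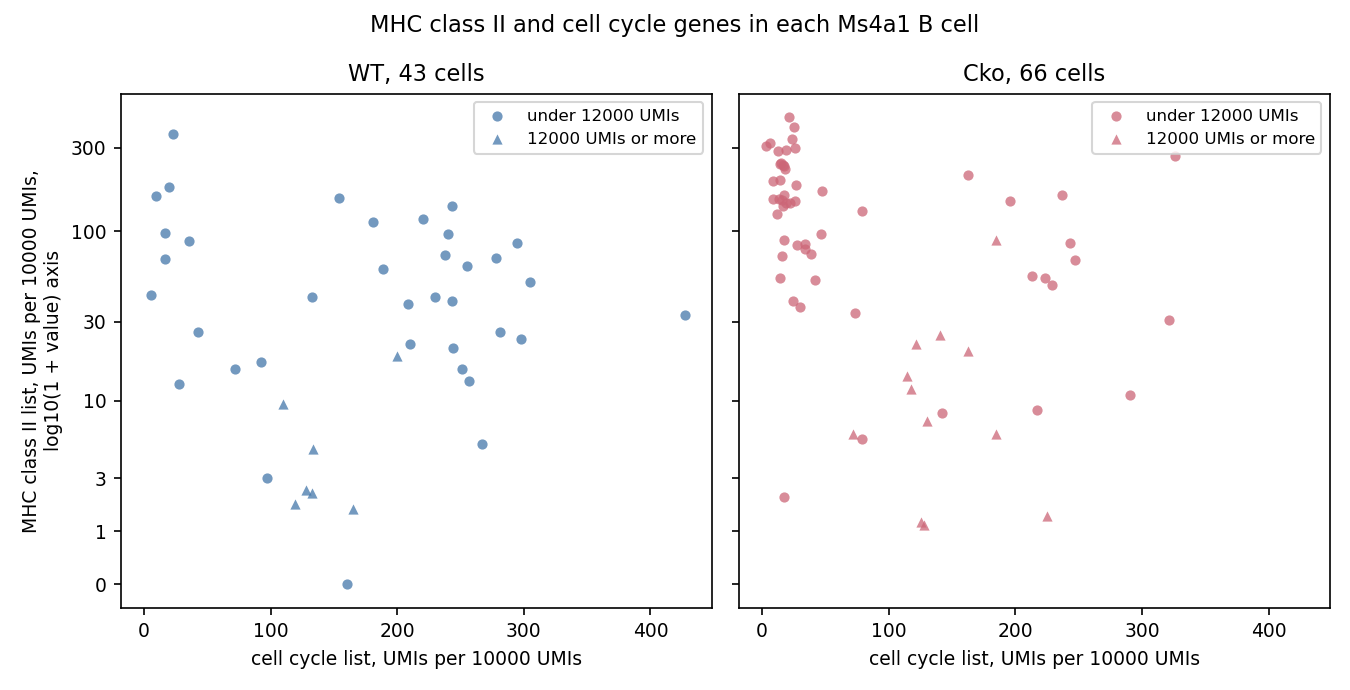
MHC class II against cell cycle UMIs, both per 10000 UMIs of the cell, for each *Ms4a1* B cell of WT and Cko. The median class II level was 38.0 in WT and 89.1 in Cko, and the median cell cycle level 181 and 34.0.

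Among the 12 lowest ratios were 4 genes of the nucleus. *Hist1h2ap*, a replication-dependent H2A histone, was at 1231 and 349 CPM, a ratio of 0.28 (0.24 to 0.34), or 0.19 (0.14 to 0.24) in the restricted set. It was lower in Cko in the other cell sets too, at 0.50 in pre-B-like cells, 0.54 in pro-B and large pre-B-like cells, 0.38 in erythroid cells and 0.46 in neutrophils. *Cdca8*, of the chromosomal passenger complex, was at 0.35, or 0.20 in the restricted set. *Nucks1* and *Hdgf* were also at 0.35. *Hist1h2ap* was thus lower in each of these sets, whereas the *Top2a* ratio was 0.95 in pre-B-like and 0.89 in pro-B and large pre-B-like cells. The cell cycle list was also lower in Cko erythroid cells, summing to 11730 CPM in WT and 8695 in Cko. Its medians per erythroid cell were 13705.5 and 1347 CPM. In neutrophils it summed to 17047 and 16288 CPM, and in pre-B-like cells to 20555 and 21743.

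Genes of maturation gave mixed values. *Ighd*, *Fcer2a* and *Cr2*, the usual marks of mature B cells, were in neither table. *Ltb*, the lymphotoxin that organises lymphoid tissue, was at 178 and 391 CPM, a ratio of 2.19 (1.63 to 2.99). It was the only 1 of 5 mature B genes with enough UMIs to be at least 2-fold higher, against 4.62% of all genes. In the restricted set it was at 1.93 (1.42 to 2.67), short of 2-fold. *Ccr7*, a homing receptor for lymphoid organs, was listed in Cko only, with 26 UMIs in 17 cells.

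Other genes of the mature list with at least 100 UMIs had ratios closer to 1. *Faim3*, the Fc receptor for IgM now named *Fcmr*, was at a ratio of 0.90 (0.68 to 1.21). *Tnfrsf13c*, the survival receptor for BAFF, was at 0.82, and *Klf2*, a regulator of lymphocyte traffic, at 1.14. The median log2 ratio of the 5 genes was -0.03, close to the -0.10 of all genes. Among these 5 genes the higher value thus belongs to *Ltb*. Genes of the list with fewer UMIs ranged from 0.26 (0.02 to 1.59) for *Gpr183*, on 5 and 2 UMIs, to 2.86 (1.06 to 9.65) for *Cxcr4*, on 5 and 22.

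Genes of earlier stages had ratios on both sides of 1. *Vpreb3* had a lowest, median and highest of 0, 5 and 30 UMIs in WT and 0, 2 and 23 in Cko, at 905 and 539 CPM, a ratio of 0.60 (0.50 to 0.71). *Chchd10* was also at 0.60 and *Cd24a*, a surface antigen of immature cells, at 0.82. *Sox4*, a regulator of early B cells, gave 24 and 16 UMIs, a ratio of 0.43 (0.21 to 0.85). *Rag1*, the recombinase, gave 4 and 2 UMIs, too few to compare. None of 6 genes with at least 100 UMIs passed 2-fold and their median log2 ratio was -0.29, while under 12000 UMIs *Vpreb3* was at 0.49.

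Receptor signalling genes come next. *Cd79b*, the Ig-beta chain, was at 781 and 1086 CPM, a ratio of 1.39 (1.20 to 1.62), *Cd37*, a tetraspanin, at 1.62 (1.32 to 1.99) and *Ptprc*, the CD45 phosphatase, at 1.62. *Cd52* was at 1.15 and *Siglecg* at 1.12. Of 10 signalling genes with enough UMIs none passed 2-fold, a count near the background of 4.62% higher and 2.59% lower, and the median log2 ratio was 0.18. *Fcrl1*, an Fc receptor-like gene, was listed in Cko only, with 44 UMIs in 28 cells, and *Cd22*, an inhibitory co-receptor, in WT only, with 11 UMIs.

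*Ebf1*, a factor that specifies the B lineage, was at a ratio of 0.81 (0.70 to 0.94), *Tcf3* at 0.61 and *Id3*, an inhibitor of E proteins, at 0.66. *Spi1*, *Pou2f2* and *Irf8* were at 1.60, 1.55 and 1.38. *Bach2*, which holds back plasma cell fate, was at 0.39 (0.19 to 0.77) on 25 and 15 UMIs, and *Pax5* was in neither table. None of 10 factors passed 2-fold, again near the background, with median log2 ratio -0.14. Of survival genes, *Btg1*, an antiproliferative factor, was at 1.57 (1.27 to 1.96), *Bcl2* at 1.83 (1.01 to 3.46) on 16 and 45 UMIs and *Pim1*, a kinase, at 0.47. *Pik3ip1*, which restrains PI3 kinase, gave 5 UMIs in 3 WT cells and 32 in 25 Cko cells. No survival gene with enough UMIs passed 2-fold.

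*Tsc22d3*, which encodes the glucocorticoid-induced leucine zipper GILZ, was among the 12 highest ratios. It gave 9 UMIs in 9 of 43 WT cells and 99 UMIs in 46 of 66 Cko cells, 27.7 and 198 CPM, a ratio of 7.14 (3.61 to 16.1), and 7.63 under 12000 UMIs without the plasma cell-like cell. The ratio was also above 1 in the other cell sets, at 3.31 in pre-B-like cells, 2.87 in pro-B and large pre-B-like cells, 6.93 in erythroid cells and 1.62 in neutrophils. *Gm10036*, a ribosomal protein-like gene whose reads may be shared with its parent gene, was at 5.79 in the B cells and between 2.14 and 4.01 in those sets. Neither gene was tested against the library as a whole, and a library-wide part of these ratios cannot be told apart from one of the B cells.

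Most of the other highest ratios belonged to genes of the granulocyte lineage. *Fcnb* was at 10.2, *Chil3* at 9.80, *Mpo* at 6.06, *Elane* at 5.91, *Pglyrp1* at 5.67, *Ms4a3* at 5.09, *Nkg7*, also a gene of the T and NK list, at 4.65, *1100001G20Rik* at 4.63 and *S100a8* at 4.26, with *Prtn3* next. All 9 genes of the 13 in the neutrophil list with enough UMIs were at least 2-fold higher, against 4.62% of all genes. The list summed to 4037 CPM in WT and 18796 CPM in Cko, a ratio of 4.66. In the restricted set it was at 1618 and 5210 CPM, a ratio of 3.22 (2.82 to 3.68). There *Mpo*, *Elane* and *Prtn3* were at 0.81, 0.91 and 1.01, *1100001G20Rik* at 1.45 (0.74 to 3.01) and *Fcnb* at 2.43 (0.24 to 120) on 1 and 4 UMIs, and *Ms4a3* gave 0 and 3 UMIs. *Chil3* was at 18.8 on 4 and 124 UMIs, *Pglyrp1* at 7.49, *Nkg7* at 7.28 and *S100a8* at 3.69. A *S100a8* UMI was found in 40 of 43 WT and 65 of 66 Cko B cells and in 97.0% and 99.7% of erythroid cells, so no expression is read from having a UMI. The 8 Cko cells with at least 20 *Elane* UMIs held 75.6% of the *S100a8* UMIs of the Cko cells.

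**Figure D4:**
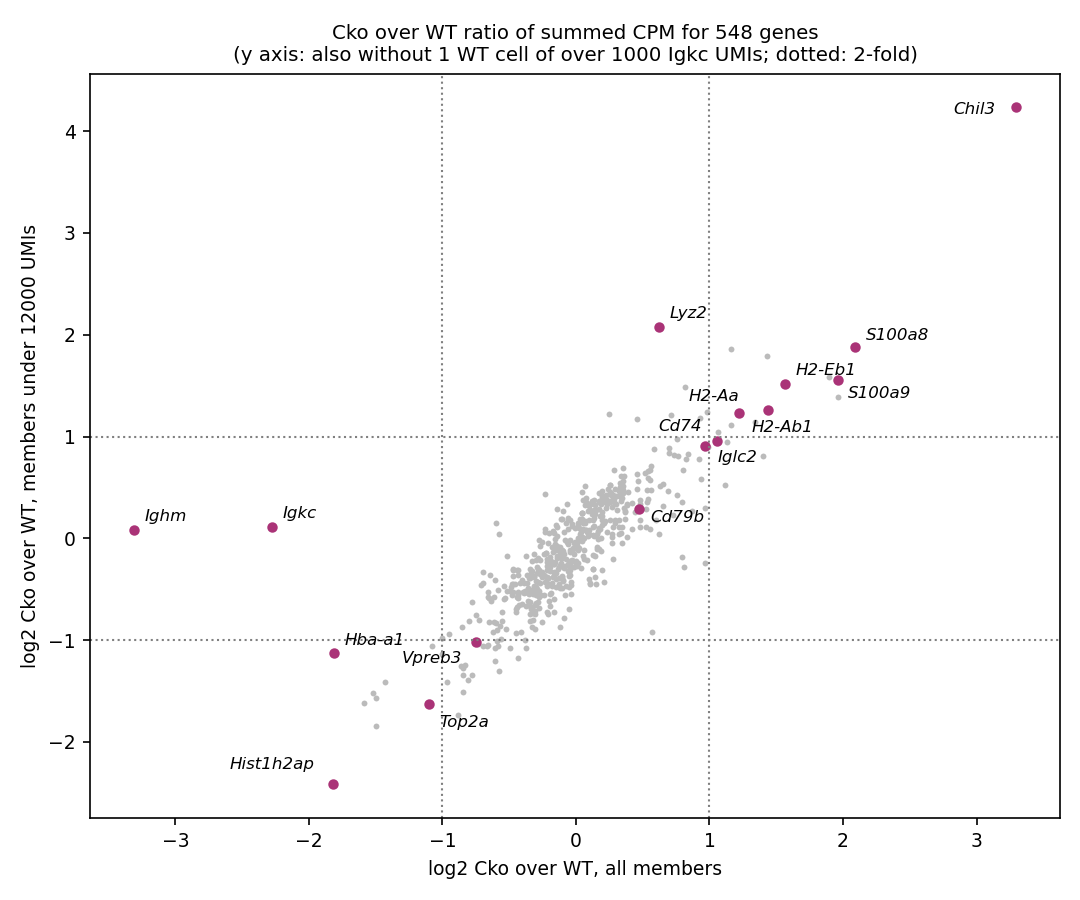
Cko over WT log2 ratio in all selected cells (horizontal axis) against the same ratio in the restricted set (vertical axis) for 548 genes. The genes are those with at least 100 UMIs in the restricted set, the cells under 12000 UMIs without the plasma cell-like cell. In this set 20 genes lie at 2-fold or more higher and 32 at 2-fold or more lower.

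Red cell genes were lower in Cko. All 6 erythroid genes with enough UMIs were at least 2-fold lower in Cko, against 2.59% of all genes. *Hba-a2* was at 0.22, *Hba-a1* at 0.28, *Hbb-bs* at 0.35 and *Car2*, a carbonic anhydrase, at 0.21. The list summed to 4880 CPM in WT and 1436 CPM in Cko, a ratio of 0.29 (0.27 to 0.32), or 0.39 (0.34 to 0.44) in the restricted set. There *Car2* was at 0.51 (0.24 to 1.06) on 18 and 15 UMIs, *Hba-a1* at 0.46 and *Hba-a2* and *Hbb-bs* at 0.24 and 0.35. *Hbb-bs* was at 0.28 in pre-B-like cells, 0.29 in pro-B and large pre-B-like cells and 0.33 in neutrophils, and at 1.06 in erythroid cells. *Tmem14c*, needed for heme synthesis, was at 0.35, or 0.52 in the restricted set. *Fn1*, a matrix gene, was at 0.33, with 80.2% of its WT UMIs in 1 cell. Hemoglobin was part of the selection, so its values are a description, and the part of free RNA in the granulocyte and red cell values was not tested.

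The other lists gave few values. In the T and NK list 1 gene had enough UMIs, *Nkg7*, and *Cd3d*, *Cd3e* and *Trbc2* gave 4, 3 and 5 UMIs in WT and 12, 1 and 6 in Cko. Of 7 interferon-stimulated genes 1, *Ly6a*, was at least 2-fold higher with 2.19, and *Ifi27l2a* was at 0.50. Of 7 genes in the ATF6 and endoplasmic reticulum chaperone list, 1 was at least 2-fold higher, *Sdf2l1* at 2.40, but at 1.15 under 12000 UMIs without the plasma cell-like cell. Both counts stand beside 4.62% of all genes, and 1 gene of 7 is too few to read. S1P cleaves ATF6 and SREBP. None of the 7 SREBP target genes listed in both tables reached 100 UMIs. The Stfa family gave 23 UMIs in WT and 102 in Cko, and no gene of it reached that minimum.

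The *Ms4a1* B cells were also set beside the pre-B-like cells of their library. The selection divides these sets on expression, and the genes named were ranked by the smaller of the ratios of both libraries, so this is a description. The pre-B-like set was mixed, with *Elane* at 2187 CPM in WT and 2264 in Cko. Its neutrophil list was at 6478 and 9417 CPM, against 4037 and 18796 in the *Ms4a1* B cells. Cells of 12000 UMIs or more held 48.3% and 34.6% of its UMIs. An *Igkc* UMI was found in 63.4% and 72.0% of its cells. The part of other cell types in these ratios was not tested. Of 2673 genes with at least 100 UMIs in the 2 sets of each library, 39 were at least 2-fold higher and 24 at least 2-fold lower in both libraries. *Faim3* was at 48.4 times the pre-B-like level in WT and 31.3 times in Cko, *Cd74* 12.8 and 14.6, *Iglc2* 12.3 and 82.2, and *Ly6d*, a surface antigen of early B cells, 9.03 and 6.94. *Cd52* was at 6.43 and 3.93, *Ifi30* at 6.32 and 4.07, *Tnfrsf13c* at 6.04 and 3.87 and *H2-Eb1* at 4.72 and 8.71. *Shisa5*, *Ccnd2*, *Gimap1* and *Ly86* followed at ratios between 3.06 and 4.44.

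The genes lowest against the pre-B-like cells were of several kinds. *Il7r*, the interleukin 7 receptor on which mouse pre-B cells depend, was at 0.26 of the pre-B-like level in WT and 0.20 in Cko. *Myl4* was at 0.24 and 0.19, *1810059H22Rik* at 0.16 and 0.09, and *Rsph9* at 0.33 and 0.09. *Stambpl1* was at 0.26 in WT and had no UMI in the Cko cells. *Prss34* and *Mcpt8*, basophil protease genes held by few pre-B-like cells, also ranked low, as did *Prg3*, at 0.28 in WT and with no UMI in the Cko cells. *Vpreb1* ranked low by the selection. As a mean over cells, *Vpreb3* went from 2308 CPM in pro-B and large pre-B-like cells to 2644 in pre-B-like cells and 1361 in *Ms4a1* B cells of WT, and from 2345 to 3033 and 700 CPM in Cko. *Cd79b* went from 561 to 850 and 1327 CPM in WT and from 655 to 1015 and 1641 in Cko.

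**Figure D5:**
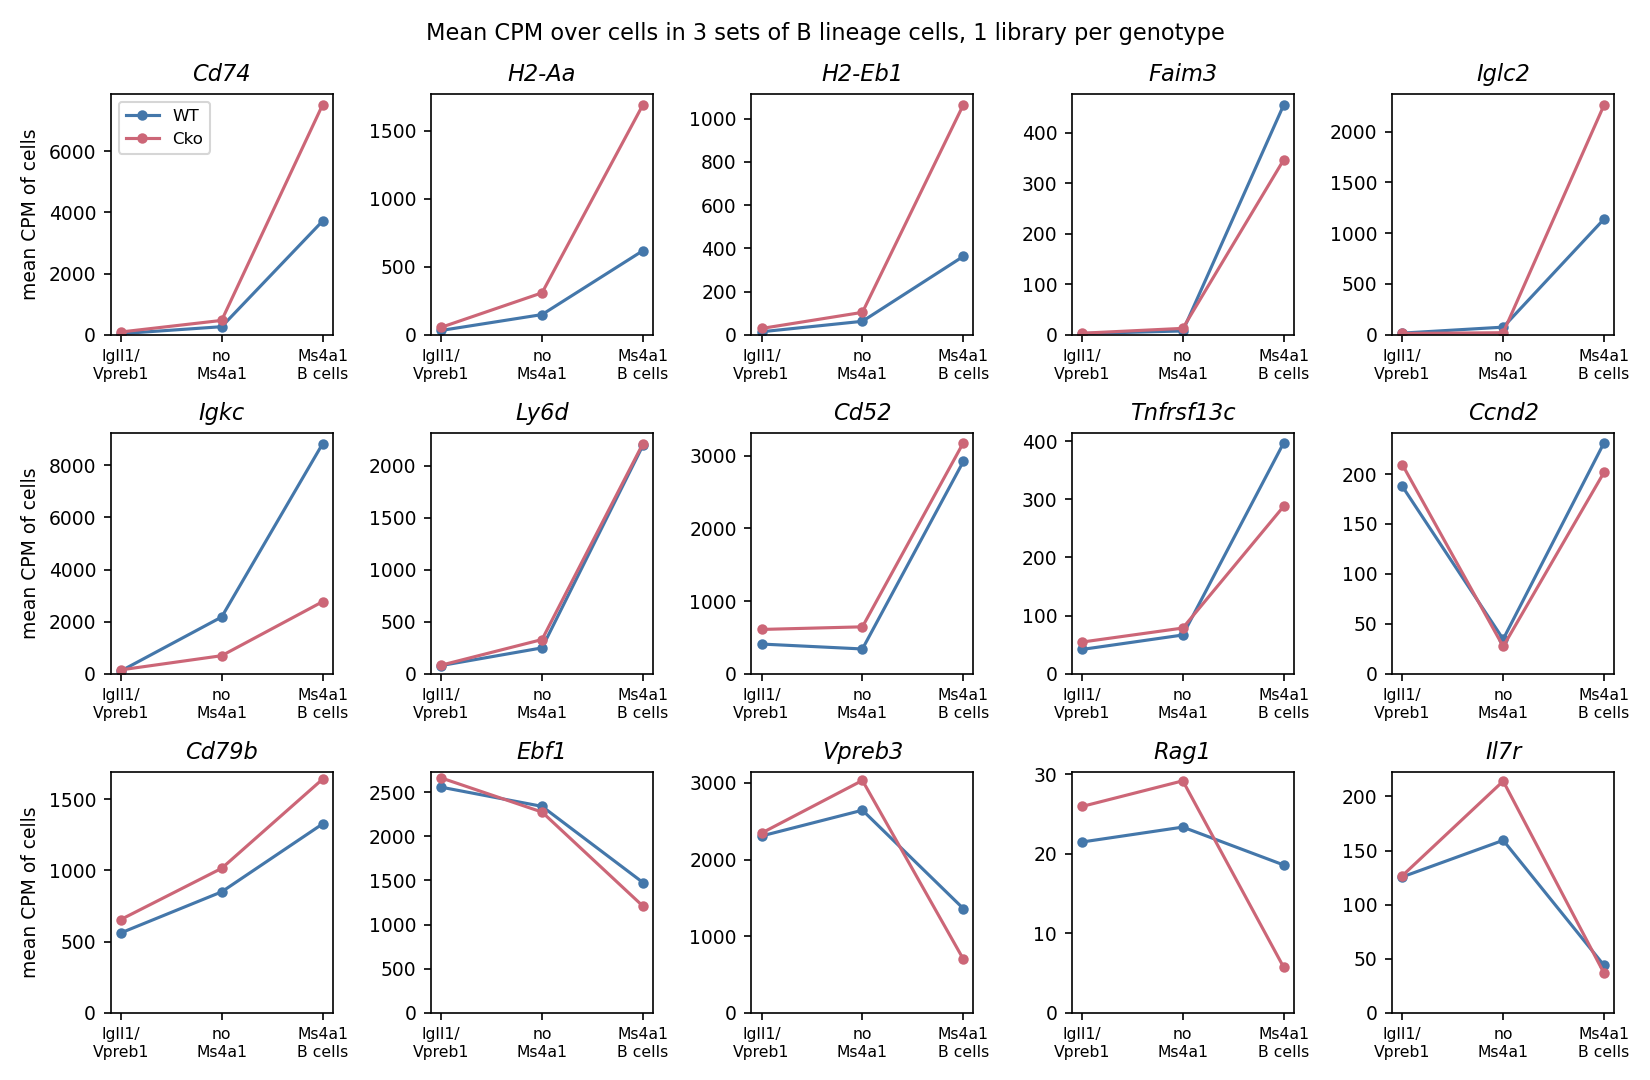
Mean CPM over cells (linear scale) of stage genes in pro-B and large pre-B-like cells (labelled Igll1/Vpreb1), pre-B-like cells (labelled no Ms4a1) and *Ms4a1* B cells of WT and Cko. *Cd79b* increased along the order in both libraries, from 561 to 1327 CPM in WT and from 655 to 1641 CPM in Cko.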

How the data were processed

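The authors deposited whole-number UMI counts per gene and barcode, 1 table each for WT and Cko. Per the submitters' processing notes Cell Ranger and GRCm38 were used. The total row and sum column were dropped. Every listed gene had at least 4 UMIs in some cell of its library, so an unlisted gene was not taken as 0. *Fcmr* was listed as *Faim3* and *Jchain* as *Igj*. *Ighd* was unlisted, and the gene planned in its place is not reported here. *Iglc2* alone stood for lambda.

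Counts were summed over the cells of each library and scaled to CPM. Shares carry exact binomial intervals, and ratios exact conditional intervals. Ratios of 2 shares of cells or of light chain UMIs carry Katz intervals. With 1 library per genotype no test was run. A gene was named if it was a marker, on a gene list (genes with at least 100 UMIs first), among the 12 highest or 12 lowest ratios of genes with at least 100 UMIs, or among the 15 highest and 10 lowest over pre-B-like cells. The members and lists were chosen with earlier results of these data known. The gene ratio and its interval were tested on simulated gene sums with counting error only. Spread between cells, the selection and the other steps were not simulated. Alternatives covered the limits on genes, *Ms4a1*, *Igll1* and hemoglobin, doublets, depth, scaling, weighting and gene minimum. Python 3.11.15, numpy 2.4.6, pandas 2.3.3, scipy 1.17.1, matplotlib 3.10.9 and scanpy 1.11.5 (Scrublet at an expected rate of 5%) were used. Gene positions are from GENCODE for GRCm38.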

Additional observations from a re-analysis of the deposited data

How the results depend on the processing

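Of the alternative values, 18 moved beyond the limits set and 0 reversed. The causes were not tested unless the construction shows them. The log2 ratio of the B cell share, 1.39, was 0.59 over cells with under 1% hemoglobin and 0.66 without a hemoglobin limit. The count of 50 higher genes was 16 after thinning to 3000 UMIs (336 genes tested), 17 at a minimum of 300 UMIs (379 genes), 90 without a hemoglobin limit (1344 genes) and 20 under 12000 UMIs without the plasma cell-like cell. The count of 28 lower genes was 13 at a minimum of 300 UMIs, 72 without a hemoglobin limit and 60 with each cell given the same weight. The log2 ratio of the lambda share, 2.50, was 2.75 with no *Igll1* or *Vpreb1* UMI, 2.08 when thinned, 0.76 with equal weight, 2.20 without a hemoglobin limit, 0.64 without the plasma cell-like cell and 0.50 when cells of 12000 UMIs or more were also left out. The log2 ratio of class II, 1.11, was 0.87 at 2 or more *Ms4a1* UMIs, 0.89 without called doublets and 1.23 when thinned. The log2 ratio of the cycling share lay between -1.18 and -0.68 over 9 alternatives. Leaving immunoglobulin, hemoglobin, mitochondrial and ribosomal protein genes out of the total gave 60 higher and 23 lower genes. The alternatives without a hemoglobin limit, under 12000 UMIs, without the plasma cell-like cell and with equal weight for gene counts, and all those of the cycling share, were chosen after seeing the data. No paired analysis was possible because each genotype has 1 library.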
